A study of Mus musculus with 3 samples.

Results

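RUNX and ETS proteins are DNA-binding transcription factors that open and activate many T cell genes. The 10 genes described here are Runx1, Runx2, Runx3, their shared partner Cbfb, and the ETS genes Ets1, Ets2, Fli1, Elf1, Elf4 and Gabpa. They were chosen by name, with earlier results of these data known, and matched by gene identifier in GENCODE M21. They are 10 of 55536 annotated mouse genes and carry 59 annotated transcripts. RNA with poly(A) tails was sequenced from primary mouse regulatory T cells (Treg), which express Foxp3 and restrain immune responses, and the cells are labelled as activated. The single donor is labelled male and 3 weeks old. The 3 libraries are technical replicates 1, 2 and 3 of 1 biological replicate, called library 1, library 2 and library 3 below. The labels do not state strain, genotype, the means of activation or the step at which the libraries parted. There was 1 group, so no conditions were compared, and every SD is the spread between these 3 libraries (n = 3), which says nothing of the spread between animals.

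RUNX proteins bind DNA through a Runt domain, and each pairs with the non-DNA-binding subunit Cbfb, which raises its affinity for DNA. In T cells Runx1 and Runx3 act on the Cd4 and Cd8 genes, and the RUNX complex sustains Foxp3 expression in Treg. ETS proteins bind a GGAA core through a winged-helix domain, and RUNX1 and ETS1 can bind side by side on T cell receptor enhancers.

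Gene reads numbered 30362256, 28419259 and 31959927 in libraries 1, 2 and 3. All 8 markers examined for Treg were detected, of which Trac, Cd3e and Cd4 are general T cell genes and Foxp3, Il2ra, Ctla4, Ikzf2 and Tnfrsf18 are high in Treg. Foxp3 itself stood at 134.5, 149.6 and 106.3 TPM (transcript level scaled for length and library total). The 8 summed to 4775 to 4845 TPM, most of it Trac and Cd3e. All 3 libraries held red-cell RNA, and library 1 stood apart in it: the 8 erythroid markers summed to 14053 TPM there, against 1181 and 814 TPM in libraries 2 and 3. The summed level of 6 monocyte and macrophage markers was also highest in library 1, at 121.9 TPM against 59.6 and 76.7 TPM. The 6 B cell markers summed to 40.8 to 68.2 TPM, both CD8 T cell markers to 20.4 to 28.4 TPM, the 6 platelet and megakaryocyte markers to 4.3 to 6.98 TPM, and the 6 endothelial markers to 72.4 to 88.8 TPM, nearly all of it Pecam1, which T cells also express. In bulk RNA such as this, fewer cells of a type and less RNA per cell cannot be told apart.

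All 10 genes were detected, here meaning 1 TPM or more in every library, as were 23.4% of all annotated genes and 48.1% of protein-coding genes. Their mean levels ran from 19.8 TPM for Runx2 to 703 TPM for Ets1, against a median of 1.17 TPM over protein-coding genes. Because TPM is scaled for length, levels of different genes can be set beside each other. All levels below are TPM as deposited unless another scale is named.

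**Figure D1:**
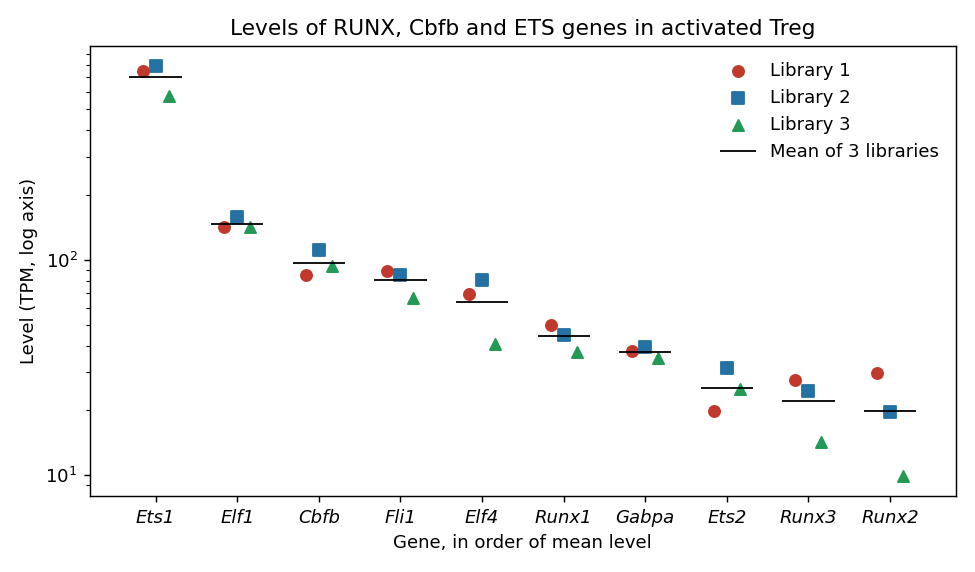
Level of each of the 10 genes in TPM (vertical log axis) in library 1 (circles), library 2 (squares) and library 3 (triangles), with the mean of the 3 as a bar and genes in order of mean level. Ets1, at 703 TPM, stands above every other gene, and the libraries spread most for Runx2, the lowest at 19.8 TPM.

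Among the RUNX genes, Runx1 was the most abundant. Runx1 (ENSMUSG00000022952.17, chr16:92601466-92826149 on mm10, minus strand), a regulator of blood formation and of thymocyte development, measured 50.05, 44.77 and 37.52 TPM in libraries 1, 2 and 3, a mean of 44.1 ± 6.29 (SD, n = 3). Library 3 was the lowest. The counts behind these levels were 2897, 2598 and 2528 reads.

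Runx3 (ENSMUSG00000070691.10, chr4:135120652-135177990, plus strand), known for establishing the CD8 T cell fate and as a Foxp3 partner, measured 27.63, 24.72 and 14.27 TPM, a mean of 22.2 ± 7.03. Libraries 1 and 2 lay close together and library 3 well below them. The Cd8a level, which Runx3 is known to maintain in CD8 T cells, was 3.5, 1.33 and 3.75 TPM.

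Runx2 (ENSMUSG00000039153.16, chr17:44495987-44814797, minus strand), best known as the master regulator of bone-forming cells, measured 29.85, 19.72 and 9.96 TPM, a mean of 19.8 ± 9.95, from 1729, 1243 and 743 reads. It had the widest spread of the 10 genes relative to its mean, with library 1 the highest and library 3 the lowest. Without library 1, where red-cell RNA was highest, the mean was 14.8 TPM. Whether other cells in that library contributed was not tested.

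Runx1 to Runx3 together summed to 107.5, 89.2 and 61.8 TPM, and Runx1 supplied 46.5%, 50.2% and 60.8% of that sum. The share of Runx2 was 27.8%, 22.1% and 16.1%, and that of Runx3 25.7%, 27.7% and 23.1%. Summed over its transcripts, Runx1 was the highest RUNX gene in each library, while the highest single transcript was Runx3-201, at 25.73, 21.68 and 13.06 TPM against 15.76, 17.35 and 12.64 TPM for Runx1-201. Runx2 and Runx3 changed places between libraries, Runx2 being the higher in library 1 and Runx3 in libraries 2 and 3.

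Each RUNX gene has 2 annotated start regions, a distal and a proximal one, and transcripts from them begin with different coding bases. The first 75 coding bases of a transcript from each start are shown because the start used decides the first residues of the protein. They come from the GENCODE M21 transcripts, read 5′ to 3′, and capitals mark the bases that the transcript from the other start lacks.
Runx1-201, distal start: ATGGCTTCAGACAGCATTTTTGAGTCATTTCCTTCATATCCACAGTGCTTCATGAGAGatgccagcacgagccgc
Runx1-203, proximal start: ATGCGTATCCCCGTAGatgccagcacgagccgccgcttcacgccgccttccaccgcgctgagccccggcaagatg
Runx2-202, distal start: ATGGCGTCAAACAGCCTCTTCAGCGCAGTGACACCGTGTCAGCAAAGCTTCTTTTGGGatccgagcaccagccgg
Runx2-203, proximal start: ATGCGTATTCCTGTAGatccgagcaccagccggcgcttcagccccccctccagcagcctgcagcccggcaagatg
Runx3-201, distal start: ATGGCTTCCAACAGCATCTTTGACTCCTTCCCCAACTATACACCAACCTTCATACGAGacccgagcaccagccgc
Runx3-202, proximal start: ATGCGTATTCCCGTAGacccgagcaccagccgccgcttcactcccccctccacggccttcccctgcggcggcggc
In all 3 genes the distal start adds 58 bases before the shared sequence and the proximal start adds 16. The 16 proximal bases were 87.5% to 93.8% identical between the 3 genes, and the 58 distal bases 56.9% to 70.7%.

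The genes differed in which start their RNA was assigned to. For Runx3, 93.1%, 87.7% and 91.5% of transcript TPM was on the distal start, a mean of 90.8% ± 2.75, and its single distal transcript Runx3-201 held 1872, 1463 and 1115 reads. The main proximal model, Runx3-202, held 37.89, 65 and 41.48 reads, or 6.51% ± 2.23 of the level. Runx3 RNA therefore lay mainly on the distal start in every library.

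Runx2 showed the opposite assignment, with 3.69%, 15.7% and 4.01% on the distal start, a mean of 7.80% ± 6.85. The distal share was high in library 2 alone, where the distal transcript Runx2-202 was given 280.54 reads, against 61.92 in library 1 and 0 in library 3. With the authors' posterior mean estimates, which give transcripts without reads a value above 0, the mean distal share of Runx2 was 20.0%. The proximal start held the larger share of Runx2 under both estimates.

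Runx1 used both, with 58.2%, 70.1% and 66.6% on the distal start, a mean of 65.0% ± 6.13. Over protein-coding transcripts alone the mean was 64.3%. Shares of reads, which are not divided by length, gave a mean of 75.3% for Runx1, 96.5% for Runx3 and 9.52% for Runx2. The order Runx3, Runx1, Runx2 in distal share was the same in each library on both scales. Start use was read from whole-transcript estimates, since no data on RNA 5′ ends were used here.

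**Figure D2:**
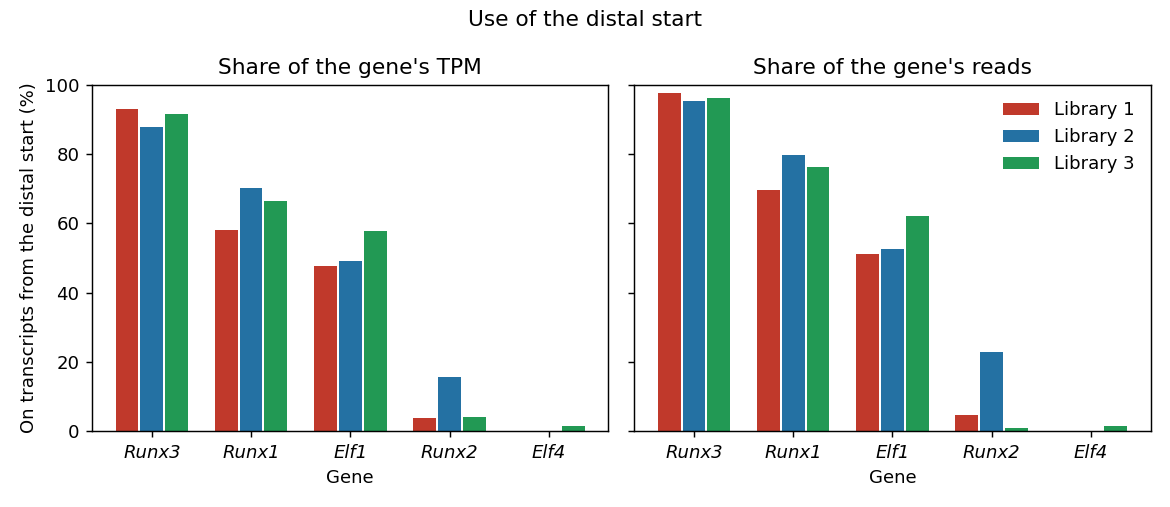
Percent of each gene's level (left, TPM) and reads (right) on transcripts from the distal annotated start, for 5 genes with widely spaced starts, 1 bar per library. Runx3 bars lie between 87.7% and 97.8%, while Runx2 bars reach at most 22.8%, in library 2.

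The promoter windows of the 3 distal starts share a short feature. In RefSeq windows on GRCm38.p6, which run from 250 bases before to 50 after a start site, the RUNX core TGTGGT was searched on both strands and found in 5506 of 32851 windows (16.8%). The 10 genes had 12 such windows for 8 genes, with none for Ets1 and Fli1. The proximal start of Runx2, which held most of its TPM, had no window either and was not searched. Of the 12 windows, 3 held the core, namely the distal windows of Runx1, Runx2 and Runx3. Each of these held a pair of cores 8 bases apart, an arrangement chosen after it was seen and present in 7 of 32851 windows (0.0213%). Of the other 4 windows, that of Gm16225 overlaps the Runx3 window on the opposite strand. The sites are shown because the pair of cores occurs in all 3 distal windows, with the core in capitals as its reverse complement.
Runx1 (chr16:92826025-92826054, minus strand): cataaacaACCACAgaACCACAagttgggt
Runx2 (chr17:44814583-44814612, minus strand): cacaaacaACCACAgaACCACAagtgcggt
Runx3 (chr4:135120503-135120532, plus strand): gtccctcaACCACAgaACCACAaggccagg
The 2 cores of Runx1 begin at +28 and +36 from the RefSeq start site, those of Runx2, which has a further core upstream, at +23 and +31, and those of Runx3 at -134 and -126. These are matches of letters, and no binding was measured. The pair of cores was present both in Runx3, with a high distal share, and in Runx2, with a low one.

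Within the RUNX genes the remaining RNA was spread over several models. Runx1-201, the full-length distal form of 1395 coding bases, held 31.5%, 38.8% and 33.7% of Runx1 TPM, and Runx1-203, the proximal form of 1353 coding bases, held 24.7%, 18.7% and 21.6%. Runx1-204, a short distal model of 336 bases, took 18.7% ± 2.38 from only 41.21 to 51.13 reads, and by reads Runx1-201 held 64.3% of the gene. Runx1-207, a processed transcript without a coding sequence, held 11.6% ± 1.53. Runx1-205 and Runx1-206, the latter with a retained intron, held 5.68% ± 1.72 and 5.30% ± 0.46. Protein-coding models together carried 83.1% ± 1.12 of Runx1 TPM, the lowest mean coding share of the 10 genes. Runx2 followed at 86.4% ± 4.55 and was the lower of these 2 genes in library 3, at 81.2% against 83.3%.

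For Runx2, the proximal full-length form Runx2-203 (1542 coding bases) held 32.3%, 32.1% and 35.7% of TPM and 64.6% of reads. Runx2-209, a model of 693 bases, took 35.8%, 23.4% and 19.6% of TPM from 130.69, 52.34 and 27.92 reads. Runx2-210 held 17.7% ± 3.05, and Runx2-212, annotated as a target of nonsense-mediated decay, held 11.5% ± 3.30. The level of Runx2-210 was poorly resolved within each library, at 4.24, 3.87 and 1.93 TPM in libraries 1, 2 and 3. The authors' posterior mean estimates for it were 2.21, 1.92 and 0.92 TPM. The deposited intervals of these estimates began at 0.0199, 8.28e-05 and 0.00376 TPM. The SD of its share does not cover this uncertainty. The share of the short model Runx2-209 was highest in library 1, where Runx2 itself was highest. Runx2 exons share 519 bases with the antisense gene Runx2os1, which stood at 5.08, 4.49 and 3.95 TPM. The labels do not say whether the libraries kept strand, so reads from the shared bases cannot be assigned to one gene by strand.

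Cbfb (ENSMUSG00000031885.14, chr8:105170674-105217989, plus strand) measured 84.67, 111.29 and 93.8 TPM, a mean of 96.6 ± 13.5. Library 2 was the highest and library 1 the lowest. The ratio of Cbfb to the summed RUNX level was 0.787, 1.25 and 1.52, so Cbfb was lower than its RUNX partners combined in library 1 and higher in libraries 2 and 3. On a log2 scale with 1 TPM added to both, this ratio averaged 0.19 ± 0.48, which does not differ from equal levels beyond the spread between libraries.

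Of the 29 transcripts of the 10 genes with a mean share of 5% or more, Cbfb-203 had the largest SD of its share, at 28.5% ± 13.6. Relative to its mean share, Runx2-202 spread more, at 5.24% ± 7.51. Cbfb-202 (546 coding bases) held 44.5%, 49.99% and 60.1% of Cbfb TPM, and Cbfb-201 (561 coding bases) held 11.4%, 15.9% and 24.2%. Cbfb-203 (444 coding bases) held 40.3%, 31.6% and 13.5%. It lacks a 117-base exon at chr8:105178593-105178709 that lies within the coding sequence of Cbfb-201. Cbfb-203 is also annotated to start further on, at base 105170945, against 105170674 for Cbfb-201 and 105170689 for Cbfb-202. What part this start had in its estimated share was not tested. The bases around the junction are shown because they tell the coding sequences of Cbfb-201 and Cbfb-203 apart, with capitals marking the exon that follows.
Cbfb-201: ggtcgctcggagatcGCTTTTGTGGCTACA
Cbfb-203: ggtcgctcggagatcGTATACTTGAAGGCT
Cbfb-201 and Cbfb-202 differ at the 3′ end of the coding sequence. The last coding bases of each, from the same codon onward, show the difference, with capitals marking 31 bases present only in Cbfb-202 and, in Cbfb-201, the 46 bases that are coding in that form alone.
Cbfb-201: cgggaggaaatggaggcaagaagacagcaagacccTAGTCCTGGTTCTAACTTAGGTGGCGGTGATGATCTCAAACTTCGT
Cbfb-202: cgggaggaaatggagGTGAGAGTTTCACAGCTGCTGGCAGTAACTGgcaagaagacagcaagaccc

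In TPM, Cbfb-203 measured 34.1, 35.15 and 12.7 in libraries 1, 2 and 3. The authors' deposited intervals, which belong to their posterior mean estimates of 31.28, 31.86 and 13.39 TPM, were 25.8 to 36.6 in library 1, 24.3 to 38.4 in library 2 and 8.0 to 18.7 in library 3. The interval of library 3 overlaps neither of the others. The read counts assigned to Cbfb-203 were 1578, 1508 and 689, although library 3 had the most Cbfb reads in all (4153, 5193 and 5706). These intervals cover the assignment of reads within a library, and the lower share in library 3 has no replicate of its own.

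**Figure D3:**
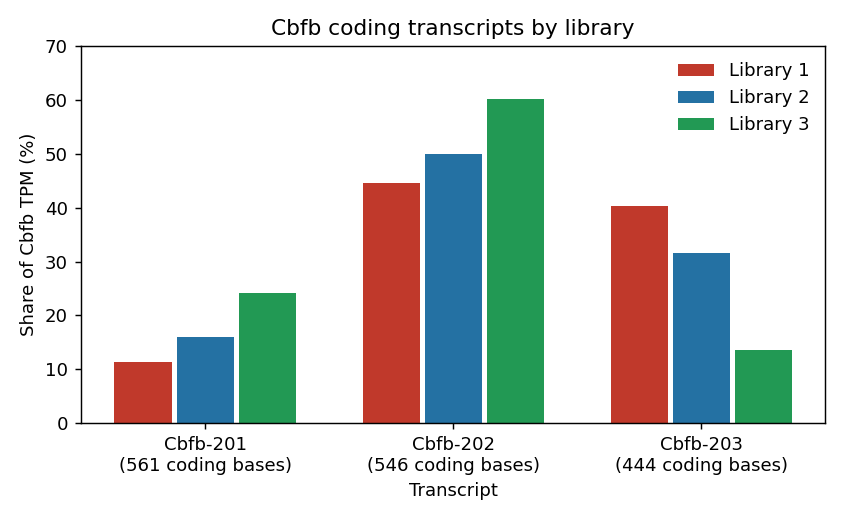
Share of Cbfb TPM (percent) on its 3 coding transcripts, 1 bar per library, with the coding length of each under its name. Cbfb-203, which lacks the 117-base exon and has a later annotated start, holds 40.3% and 31.6% in libraries 1 and 2 and 13.5% in library 3.

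Of 25 listed RUNX partners and cofactors, 20 were detected, beside 48.1% of protein-coding genes. The 5 highest were Aes (989 ± 47.0 TPM), a Groucho-family corepressor, Ncor1 (300.0 ± 19.8 TPM), a nuclear corepressor, the deacetylase Hdac1 (238 ± 22.9 TPM), the arginine methyltransferase Prmt1 (176 ± 2.21 TPM) and the deacetylase Hdac3 (84.9 ± 6.21 TPM). The long Groucho corepressors lay lower, with Tle3 at 41.79, 50.02 and 25.59 TPM and Tle4 at 26.89, 23.99 and 23.36 TPM. Runx1t1, the corepressor fused to RUNX1 in a common leukaemia translocation, had 1, 0 and 11 reads.

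Among the ETS genes, Ets1 dominated. Ets1 (ENSMUSG00000032035.15, chr9:32636221-32757820, plus strand), which lymphocytes need for normal development and which binds Foxp3 regulatory sequence, measured 750.6, 786.6 and 571.3 TPM, a mean of 703 ± 115. Libraries 1 and 2 lay close together and library 3 lower. It ranked 155 among protein-coding genes by mean TPM. Ets1 alone made up 52.5%, 52.0% and 49.1% of the summed TPM of all 26 listed ETS genes, which was 1429, 1513 and 1163 TPM.

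Nearly all Ets1 RNA was assigned to Ets1-201, the full-length form of 8 exons and 1320 coding bases, at 83.2%, 89.0% and 88.6% of TPM. Ets1-202, of 1059 coding bases, held 8.77%, 3.60% and 4.81%, from 2407, 961 and 1180 reads, and was highest in library 1. It lacks a 261-base exon at chr9:32738099-32738359. The reading frame is kept, and the lost stretch lies before the ETS domain in a region known to inhibit its DNA binding. The junctions are shown with the bases of the exon that follows in capitals.
Ets1-201: ggagagccagtcgtgGTAAACTCGGGGGCC
Ets1-202: ggagagccagtcgtgGAAGTGGGCCGATCC
Ets1-203, a retained-intron model, held 7.97%, 7.39% and 6.47%.

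Ets2 (ENSMUSG00000022895.16, chr16:95702075-95721051, plus strand), the closest relative of Ets1, measured 19.87, 31.49 and 25.12 TPM, a mean of 25.5 ± 5.82. Library 1 was the lowest and library 2 the highest. Ets1 exceeded Ets2 37.8-fold, 25.0-fold and 22.7-fold in the 3 libraries. Ets2-201 held 88.5% ± 0.72 of Ets2 TPM, and retained-intron models held 10.8% ± 1.27.

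Fli1 (ENSMUSG00000016087.13, chr9:32422204-32542861, minus strand), an ETS regulator of blood stem cells and platelet precursors that lies near Ets1 on chromosome 9, measured 88.91, 85.14 and 66.47 TPM, a mean of 80.2 ± 12.0. Library 3 was the lowest. All Fli1 reads were assigned to Fli1-201, and the other model, Fli1-202, had none. Its relative Erg had 5, 1 and 0 reads. The platelet and megakaryocyte markers, whose genes Fli1 is known to drive, were near 0, with 1 of 6 detected.

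Elf1 (ENSMUSG00000036461.16, chr14:79481194-79582494, plus strand), an ETS factor of lymphoid and blood vessel genes, was the second most abundant of the 10. It measured 140.96, 158.33 and 141.95 TPM, a mean of 147 ± 9.76, and varied little between libraries. Elf1-201, from the distal start, held 47.8%, 49.2% and 57.9% of Elf1 TPM, and Elf1-202, from a start 34480 bases further on, held 38.3%, 36.3% and 24.5%. Both encode 1836 coding bases, so the start did not change the annotated coding length. The remaining models were Elf1-203, a processed transcript at 9.47% ± 2.78, and Elf1-204 at 5.85% ± 0.91. Elf1 exons share 327 bases with Wbp4 on the opposite strand, at 48.9 to 49.2 TPM.

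Elf4 (ENSMUSG00000031103.12, chrX:48411046-48463132, minus strand), known for restraining T cell proliferation, measured 69.55, 80.9 and 40.64 TPM, a mean of 63.7 ± 20.8. Library 3 lay well below libraries 1 and 2. Only the proximal start was used to any extent, with Elf4-202 at 100%, 100% and 98.5%. The proliferation marker Mki67, given as background for this role, was 27.33, 11.21 and 10.66 TPM.

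Gabpa (ENSMUSG00000008976.16, chr16:84834925-84863779, plus strand), the DNA-binding subunit of the GA-binding protein that drives many housekeeping and mitochondrial genes, measured 37.6, 39.16 and 34.99 TPM, a mean of 37.2 ± 2.11. In TPM it varied least of the 10 relative to its mean. In counts scaled to library size, Gabpa spanned 1.17-fold between libraries, more than Elf1 at 1.12-fold. Its partner subunits Gabpb1 and Gabpb2, which carry the activation function, summed to 89.2, 77.5 and 84.7 TPM, so the ratio of Gabpa to them was 0.422, 0.505 and 0.413. Gabpa was lower than its partners combined in all 3 libraries.

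Gabpa-201 held 75.3% ± 6.58 of Gabpa TPM and Gabpa-202, with the same 1362 coding bases, 17.6% ± 2.97. Gabpa-205, a retained-intron model, held 5.77% ± 2.61 from 22.72 to 48 reads. Gabpa exons share 397 bases with Atp5j on the opposite strand, a mitochondrial ATP synthase gene at 424.5, 409.3 and 502.4 TPM, and the part of this overlap in the level of Gabpa was not tested. The Gabpa window held the ETS core CCGGAA at -92, and the proximal Runx1 window held it at -106. These were 2 of 12 windows, against 4894 of 32851 windows (14.9%) in all.

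Of the other 20 ETS family genes, 10 were detected, beside 48.1% of protein-coding genes. The highest were Elf2 at 97.94, 93.76 and 71.26 TPM, Elk4 at 84.05, 88.47 and 76.63 TPM, and Elk3 at 52.12, 54.62 and 59.24 TPM. Elk4 and Elk3 are ternary complex factors that act with Srf, which measured 25.2, 28.05 and 18.43 TPM. Etv3 (30.1 ± 5.66 TPM) and Etv6 (27.6 ± 3.82 TPM), both repressors, lay beside Ets2. Elk1 (7.31 ± 0.71 TPM), Spi1 (7.31 ± 1.88 TPM), Spic (5.62 ± 0.99 TPM), Etv5 (2.94 ± 0.27 TPM) and Erf (2.18 ± 0.14 TPM) were low but detected.

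Spi1 and Spib are regulators of myeloid and B cells. Spi1, which encodes the myeloid and B cell factor PU.1, had 290, 162 and 165 reads (9.41, 6.76 and 5.77 TPM), highest in library 1, where the summed monocyte and macrophage markers were also highest, though Spi1 TPM was lowest in library 3 and that sum in library 2. Spib, a B cell and dendritic cell factor, had 32, 77 and 130 reads (0.62, 1.73 and 2.26 TPM), highest in library 3 and lowest in library 1. Of the 6 B cell markers, 4 were highest in library 3 by CPM, while Blk and Pax5 were highest in library 1. What part other cells had in these levels was not tested. The remaining genes were Ehf (0.04, 0.85 and 0.72 TPM), Etv1, Spdef, Etv4, Elf3, Elf5, Erg and Fev, each with a mean under 1 TPM, and Etv2, which had 0 reads in all 3 libraries. At these depths 0 reads allows up to 3 reads per library, a limit that covers counting error only.

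**Figure D4:**
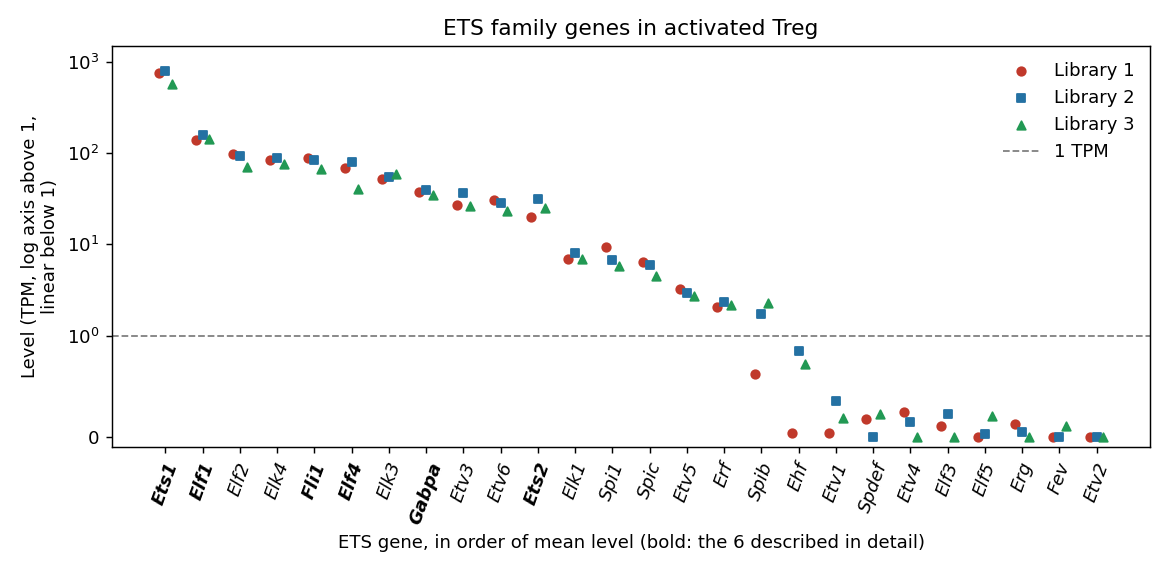
Level in TPM of 26 ETS genes (vertical axis, logarithmic above 1 and linear below) in library 1 (circles), library 2 (squares) and library 3 (triangles), in order of mean level, with the 6 genes described in detail in bold. There were 16 genes at or above the 1 TPM line in every library, and Ets1 lies above all others.

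Of 12 listed ETS partners and regulators, all 12 were detected, beside 48.1% of protein-coding genes. The ubiquitin ligase Mdm2 measured 82.4 ± 5.15 TPM, and Cop1, a ligase known to degrade ETS proteins, 80.6 ± 2.62 TPM. Cic, known as a repressor of the Etv group, measured 33.0 ± 4.01 TPM, and Etv5 of that group 2.94 ± 0.27 TPM. Whether Cic acted on Etv5 in these cells was not tested.

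In order of mean level the 10 genes ran Ets1, Elf1, Cbfb, Fli1, Elf4, Runx1, Gabpa, Ets2, Runx3 and Runx2. A pair was called different where log2((TPM + 1)/(TPM + 1)) had 1 sign in all libraries and its mean exceeded 2 SD. No p was computed, because 3 libraries give a sign-flip p of at least 0.25. By this rule 2 of the 9 neighbouring pairs differed, Ets1 above Elf1 by 2.24 ± 0.21 and Elf1 above Cbfb by 0.61 ± 0.11.

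The other 7 neighbours did not differ beyond the spread. They were Cbfb over Fli1 (0.27 ± 0.30), Fli1 over Elf4 (0.37 ± 0.31), Elf4 over Runx1 (0.47 ± 0.36), Runx1 over Gabpa (0.23 ± 0.16), Gabpa over Ets2 (0.55 ± 0.30), Ets2 over Runx3 (0.22 ± 0.62) and Runx3 over Runx2 (0.23 ± 0.30), all on the log2 scale. Over all 45 pairs, 32 were called. Runx1 lay above Runx3 by 1.00 ± 0.29 and above Runx2 by 1.23 ± 0.55, both called. In TPM summed over all models of each gene, the lead of Runx1 within its family thus held beyond the spread. That sum includes the short Runx1-204 (8.33, 8.16 and 8 TPM) and the non-coding Runx1-207 (5.04, 5.88 and 4.34 TPM). Whether the lead held over the longer coding models alone was not tested. Of the 9 neighbouring pairs, 6 were called without library 1, 4 without library 2 and 3 without library 3. The rule is easier to meet with 2 libraries than with 3, so these counts cannot be set beside the 2 pairs called above.

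The counts of all 10 genes differed between the libraries by more than counting error. By a chi-square test on counts scaled with edgeR's TMM factors, adjusted by Benjamini-Hochberg over 17190 genes, 10 of 10 passed at 0.05, against 79.8% of all genes tested and 87.1% of genes averaging at least 50 reads. Most genes passed, so this count says little of the 10, and the test compares libraries of 1 biological sample. The same 10 passed without library 1 (background 65.1%). Gabpa was lost without library 2 (9 of 10, background 65.9%), and Runx1 and Fli1 were lost without library 3 (8 of 10, background 54.3%).

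The size of these differences varied from gene to gene. The highest over the lowest library, in counts scaled to library size (CPM), was 2.57-fold for Runx2, 1.88-fold for Elf4, 1.83-fold for Runx3 and 1.59-fold for Ets2, and 1.12-fold to 1.35-fold for the other 6. One of the 10, Runx2, exceeded 2-fold, against 11.0% of the 11113 genes that averaged at least 100 reads. Differences over 1.5-fold were found in 4 of 10, against 32.2% of those genes. The median fold was 1.33 for the 10 genes and 1.34 for all of those genes.

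Library 3 was never the highest for any of the 10 by CPM, against 34.5% of genes tested that were highest there, and it was the lowest for 6 of 10, against 41.7%. The 6 were Ets1, Fli1, Elf4, Runx1, Runx3 and Runx2. Library 2 was the highest for Ets1, Elf1, Cbfb, Elf4, Gabpa and Ets2 (6 of 10, against 32.7%) and the lowest for none (28.2%). Library 1 was the highest for Fli1, Runx1, Runx3 and Runx2 (4 of 10, against 32.8%), and the lowest for Elf1, Cbfb, Gabpa and Ets2 (4 of 10, against 30.2%).

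Transcript length moved with these differences over all genes. Across 17179 genes, Spearman's rho between the length of the main transcript and a library's deviation in log2 CPM was 0.147, 0.169 and -0.249 in libraries 1, 2 and 3, a description over genes that share the same libraries. Main transcripts of the 10 genes ran from 2891 bases (Cbfb) to 6463 bases (Runx2). After a trend in length and GC content was removed, the fold between libraries was 2.23 for Runx2, 1.65 for Elf4, 1.44 for Runx3 and 1.68 for Ets2. Library 3 was then the lowest for 7 of 10, against 41.8%, and again the highest for none, against 31.9%, so library 3 was low with the trend removed too. Library 2 was the highest for 8 of 10, against 41.3%, and the lowest for none, against 22.3%. All 10 genes still passed the chi-square test on these values, against 79.6%.

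**Figure D5:**
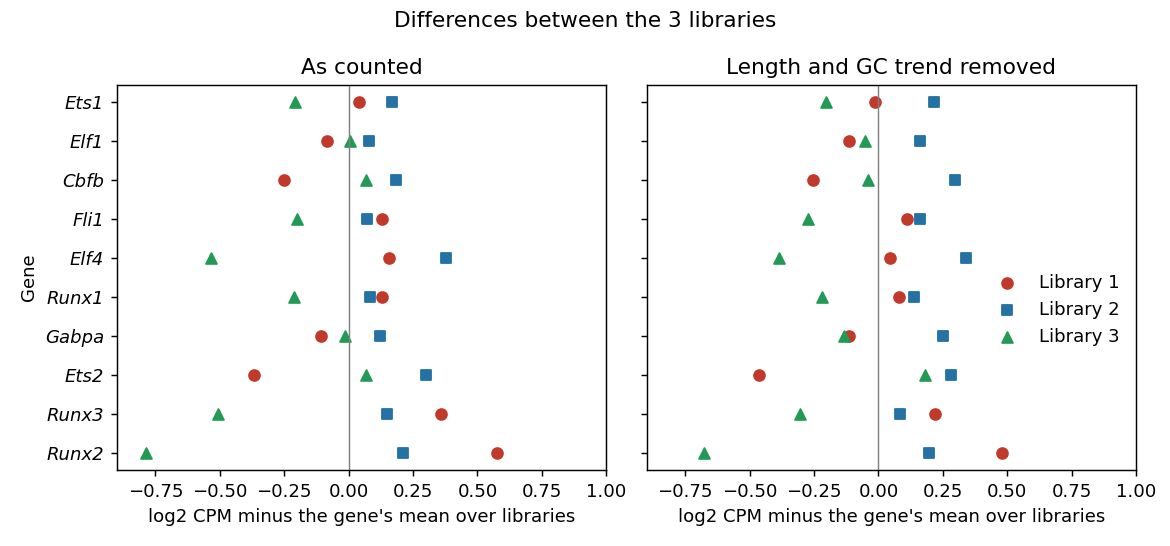
Log2 CPM of each gene minus its mean over the 3 libraries (horizontal axis), as counted (left) and after removal of the trend in length and GC content (right), with library 1 as circles, library 2 as squares and library 3 as triangles. Library 3 lies lowest for 6 genes on the left and 7 on the right, and Runx2 spans 2.57-fold and 2.23-fold.

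A list of known T cell targets of these factors, with background genes such as Mki67, held 28 genes. All 28 were detected, beside 23.4% of all annotated genes and 48.1% of protein-coding genes. The list was chosen with earlier results of these data known, so this detection says little of the factors. By the chi-square test with Benjamini-Hochberg adjustment, 27 of 28 differed between libraries. The background was 79.8% of all genes tested and 87.1% of those averaging at least 50 reads. The 5 highest were the T cell receptor and signalling genes Trbc2 (3063 ± 505 TPM), Trac (2223 ± 203 TPM), Cd3g (1012 ± 114 TPM), Lck (984 ± 98.9 TPM) and Cd3e (973 ± 47.2 TPM). Il7r, a known target of ETS and RUNX factors, measured 365.6, 453.2 and 209.2 TPM, with library 3 the lowest as for Ets1. Cd4, given as background for RUNX silencing, measured 408.3, 434.1 and 259.2 TPM, and Zbtb7b, the CD4 lineage factor that opposes Runx3, 26.98, 41.34 and 27.73 TPM. Tbx21 (45.16, 19.5 and 11.75 TPM) and Ifng (26.48, 5.76 and 6.64 TPM), on which Runx3 is known to act in helper T cells, were highest in library 1, as were Runx3, Runx2 and the erythroid and monocyte markers, whose part was not tested. With 3 libraries of 1 sample, no relation between the factors and these targets was computed.

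Over the 4 lists of other ETS genes, partners, regulators and targets, 70 of 85 genes were detected. The background was 23.4% of all annotated genes and 48.1% of protein-coding genes. By the chi-square test 11 of 13 tested ETS genes, 21 of 23 RUNX partners and 8 of 12 ETS partners and regulators differed between libraries, beside the same background of 79.8%.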

How the data were processed

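Polyadenylated RNA was measured in 3 libraries of 1 group. Per the deposited library notes, the gene and transcript tables used here rest on mm10 with GENCODE M21, and their expected counts are reads estimated per gene or transcript from transcriptome alignments. TPM and FPKM as deposited were scaled by the authors for length and for a total or for reads. The percent of a gene's TPM on each transcript was recomputed from the deposited TPM values. A further deposited table holds whole-number counts for 22457 GENCODE M4 genes and served as an alternative. It is compressed at high counts. The deposited intervals of transcript TPM belong to the authors' posterior mean estimates, at a level the headers do not state. For the aligner, the counting program and strandedness, no label or header used here gives an answer.

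The 10 genes and the lists were chosen with earlier results of these data known. All 55536 gene identifiers matched the annotation. Other entries (spike-in and transfer RNA) took 0.166% to 0.229% of reads and entered neither library sizes nor tests. Rounded expected counts were compared with library sizes scaled by TMM (edgeR 4.0.16, R 4.3.3) by chi-square with 2 degrees of freedom, for genes averaging at least 10 reads, with Benjamini-Hochberg adjustment at 0.05. With 1 group, no edgeR quasi-likelihood contrast could be fitted. Deviations used log2 CPM with a prior count of 0.5, and the trend was quadratic in length and GC content of the transcript with most reads. Start regions were split at the largest gap between annotated starts. Promoter windows were taken from RefSeq on GRCm38.p6. Named are all 10 genes, all other ETS genes, the 5 highest of each list, background genes of a member, and transcripts with a mean share of 5% or more. Some genes under this rule are not reported here, but list counts include them. Procedures were tested on simulated data. Python 3.11.15, numpy 2.4.6, scipy 1.17.1, pandas 2.3.3 and DESeq2 1.42.0 were used.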

Additional observations from a re-analysis of the deposited data

How the results depend on the processing

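Posterior mean TPM, FPKM, a pseudocount of 0.1, detection at 5 TPM, DESeq2 size factors, count filters, posterior mean counts, the deposited M4 counts (here the other table) and 2 libraries at a time were tried. Counts that sum up the main comparisons, such as genes detected or called, stayed within 1.5 times under 41 alternatives. The exception among these counts was the number of neighbouring pairs called different, 2 of 9, which became 5 in the other table. With a library left out it was 3 to 6 (6 without library 1, 4 without library 2), and the rule is easier to meet with 2 libraries. In the other table, in reads per kb, Ets1 against Elf1 reversed to -0.15 and Cbfb against Fli1 to -0.87 on the log2 scale. Counts of abundant genes are compressed in that table. Ets2 against Runx3 was -0.059 to 0.56 with a library left out, reversed without library 3. Some single shares also moved beyond 1.5 times. The mean distal share of Runx2 went from 7.80% to 20.0% with posterior mean TPM. By reads, the share of Runx1-201 went from 34.6% to 64.3% and that of Runx2-203 from 33.4% to 64.6%. With the length and GC trend removed, the log2 CPM deviation of Ets1 in library 1 became -0.012, that of Elf1 in library 3 -0.051 and that of Cbfb in library 3 -0.042, each slightly above 0 before. By counts of the other table, 7 of 10 genes differed between libraries, against 64.9% of all its genes tested, and Elf1, Fli1 and Gabpa did not pass. No paired analysis was possible because there is 1 group. Depth limits the short transcript models, which rest on fewer than 150 reads, and single-library shares have no replicate.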
